A study of Homo sapiens with 10 samples.

Results

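Ubiquitin E3 ligases are described here by family after YTHDF1 knockdown in HCT116 cells, a line derived from a human colorectal carcinoma. The genes were taken by symbol from the deposited expression table. Symbols had to start with RNF, TRIM, KLHL or CUL followed by a digit, or with FBXO, FBXL or FBXW. This gave 100 of 6926 rows, and all 100 had enough signal to be tested. They were 37 RNF, 16 TRIM and 15 KLHL genes, the 4 cullins CUL2, CUL3, CUL4A and CUL5, and 28 F-box genes (17 FBXO, 8 FBXL and 3 FBXW). The choice rests on names, so a few of these genes may not encode a ligase or a ligase subunit. FBXO18 is FBH1 and RNF219 is OBI1 in RefSeq.

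Ubiquitin is joined to a protein by an E1, E2 and E3 enzyme in turn, and the E3 ligase picks the substrate. Most RNF and TRIM proteins carry a RING domain, which binds the E2 directly, and the TRIM proteins join it to B-boxes and a coiled coil. Cullins are scaffolds that hold a RING subunit at one end and an exchangeable substrate receptor at the other. F-box proteins are receptors of CUL1 complexes, with FBXL, FBXW and FBXO naming leucine-rich repeats, WD40 repeats or other domains beside the F-box. Many KLHL proteins are receptors of CUL3. YTHDF1 is a reader of N6-methyladenosine (m6A), a modified base of mRNA, and has been linked to translation.

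The study asked which mRNAs depend on YTHDF1 for their translation. Ribosome profiling, which sequences mRNA fragments shielded by ribosomes, covered 1 control library (an shGFP hairpin, per the file headers) and 2 knockdown libraries, titled shY1-1 and shY1-2 and called knockdown 1 and 2 here. mRNA-seq covered the same 1 and 2. HCT116 without knockdown gave 1 immunoprecipitate of YTHDF1-bound RNA (RIP), 1 input, and 2 m6A-seq replicates. The labels give cycloheximide, an elongation inhibitor, at 100 ug/ml for 3 min for all 10 samples. They do not settle whether shY1-1 and shY1-2 are different hairpins or repeats of 1, nor whether the samples are separate cultures, so p-values measure only the spread between these libraries, which may be technical.

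YTHDF1 mRNA was 27.4 in the control and 8.62 and 7.81 in the knockdown libraries, and its footprints were 61.4 against 17.0 and 19.9, so both stood near 0.3 of the control (limma adjusted p = 1.00 and 0.552). The file headers name no unit for these values, which are a relative abundance. Depth is therefore unknown, and levels are mainly compared between libraries. Where a level or ratio is ranked among all genes, the unknown unit limits that rank. Of 10 colon epithelial markers 6 were in the table, with summed mRNA values of 3920 in the control and 5500 and 3400 in the knockdown. Of 8 fibroblast markers only COL1A1 was listed, at mRNA values of 1.35 in the control and 2.36 and 1.8 in the knockdown and footprints of 0.631, 13.2 and 3.71. None of 8 blood and 4 endothelial markers was listed. Over 6782 genes the median log2 footprint change was -0.28, while that of mRNA was -0.01, so a footprint change of a single gene is read beside this shift. No control value in the table was under 0.5, while 2 of the ligase genes had a footprint value of 0 in knockdown 1. The table thus holds falls to 0 but no rises from 0. Whether this tilts the median and the shares of lower genes was not tested.

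The m6A-seq lists name, for every peak, a motif of 5 bases and the position of its methylated adenosine along a transcript that the lists do not name. The sites below were at the same position in both replicates and are shown because they had the highest peak ratios of each family. The peak ratio is the signal in the m6A immunoprecipitate over that in the input. Up to 2 sites per family were taken, 1 per gene, with an input signal of at least 30 in both replicates, a choice made after the values were seen. The capital marks the adenosine listed as methylated. It lay outside the peak window in both replicates for KLHL42 and in replicate 1 for RNF135.
RNF135, position 1554: gaAct
RNF11, position 609: gaAca
FBXO11, position 383: aaAct
FBXL5, position 1426: agAca
TRIM2, position 289: gaAct
TRIM21, position 1552: ggAca
KLHL42, position 508: ggAct
KLHL29, position 1178: gaAcc
CUL4A, position 1022: gaAca
CUL2, position 575: gaAcc

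At these sites the peak ratios in replicates 1 and 2 were 28.0 and 29.0 in RNF135, an activator of RIG-I signalling, and 27.5 and 28.6 in RNF11, a small RING protein. They were 25.8 and 25.03 in FBXO11 and 20.4 and 10.8 in FBXL5, the receptor that targets iron regulatory protein IRP2. TRIM2 had 25.7 and 13.9, and TRIM21, the cytosolic antibody receptor, had 10.6 and 10.5. KLHL42 stood at 14.6 and 15.1 and KLHL29 at 5.02 and 19.7, the widest difference of the 10 sites. The cullins were lowest, with 6.17 and 5.77 in CUL4A and 5.88 and 3.22 in CUL2. Of the 10 sites 2 held GGAC, the form of the motif most often linked to m6A.

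Knockdown gave no member a footprint change past the test. With limma on log2(value + 1), Benjamini-Hochberg adjustment over all genes and a threshold of 0.05, 0 of 100 members passed, beside 0.0295% of all genes. With 1 control per assay an exact permutation test could not go below p = 0.333, so the spread comes from the knockdown pairs. At an unadjusted limma p under 0.05 there were 8 members, 2 higher (all genes 1.86%) and 6 lower (all genes 6.99%). After centring each library on its median this split was 8 higher and 2 lower, against 4.57% and 2.80% of all genes, and after quantile normalisation 9 and 3, against 4.64% and 3.20%. The 8 members became 17 without footprint library 1 of the knockdown (13.4% of all genes) and 18 without library 2 (21.0%), and 5 without either mRNA library of the knockdown (4.41% and 4.36%). FBXL16, FBXO34, KLHL26 and RNF169 had an unadjusted limma p under 0.05 without scaling, after centring and after quantile normalisation. FBXO34 did not when each assay was fitted alone. KLHL26 and RNF169 were left out by a stricter filter, a mean log2(value + 1) of at least 3, as were FBXO36 and KLHL20. The footprint changes of FBXO18, FBXO36, KLHL20 and RNF149 stayed negative in every setting in which they were tested. Both knockdown libraries were above the control in 24 members (17.5% of all genes) and below it in 48 (51.2%). The median change of the members was -0.21, with members ranging from -3.67 to 3.96.

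**Figure D1:**
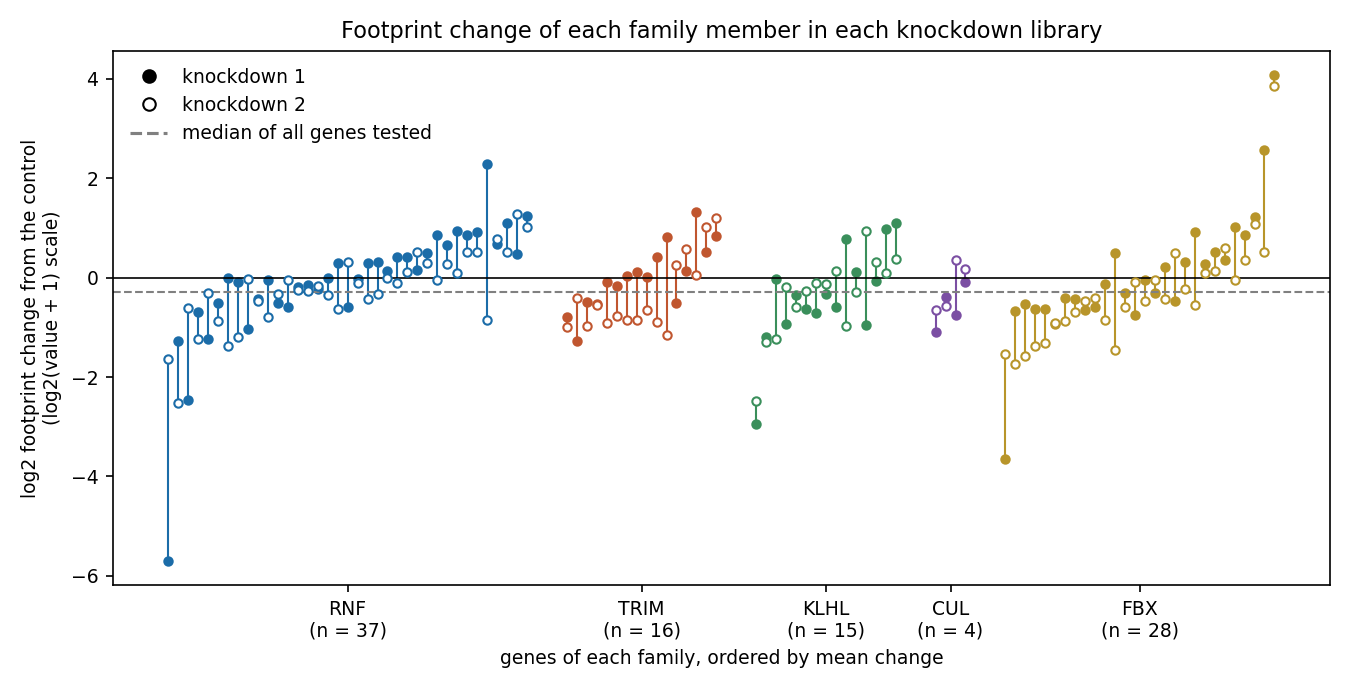
Log2 footprint change from the control (log2(value + 1) scale) of each of the 100 genes, ordered within family by mean change. Filled points are knockdown 1, open points knockdown 2, a line joins both, and the dashed line is the median of all genes tested (-0.28). FBXL16 stands alone at the top, and RNF149 has the lowest mean and a wide gap between its libraries.

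By family the median footprint change was -0.14 in RNF (-3.67 to 1.14), -0.35 in TRIM (-0.89 to 1.02), -0.23 in KLHL (-2.71 to 0.74), -0.34 in the cullins (-0.88 to 0.05) and -0.34 in the F-box genes (-2.59 to 3.96). Both libraries were lower in 17 of 37 RNF, 6 of 16 TRIM, 8 of 15 KLHL, 2 of 4 cullin and 15 of 28 F-box genes. Both were higher in 11, 4, 2, 0 and 7. The knockdown libraries differed most in TRIM, whose median was 0.02 in knockdown 1 and -0.71 in knockdown 2, against -0.19 and -0.34 over all genes. In these counts and medians the families lay around the values of all genes, and no difference between families was tested.

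The F-box gene FBXL16 (chromosome 16, 692500 to 705801) had the highest footprint change of all 6782 genes. FBXL16 encodes a leucine-rich repeat F-box protein. Footprints stood at 4.67 in the control library and at 94.7 and 80.9 in knockdown 1 and 2, or 87.8 ± 9.78 (SD, n = 2). The mRNA stood at 15.7 in the control and at 18.7 and 14.8 after knockdown. So both knockdown libraries were far above the control in footprints, while the mRNA values lay on either side of it. The log2 change was 3.96 ± 0.39 (SE) in footprints and 0.08 ± 0.39 in mRNA, and footprints missed the threshold (limma adjusted p = 0.0751, unadjusted p = 3.3e-05). Without footprint library 1 of the knockdown it passed (3.85, adjusted p = 0.0434), as it did without library 2 (4.08, adjusted p = 0.0186). In these fits the lone knockdown library is assumed to vary like the mRNA pair. The control is 1 library, so its low value has no replicate.

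The footprint to mRNA ratio of FBXL16 was 0.298 in the control, which placed it at percentile 4.31 of all genes. It was 5.07 and 5.45 in the knockdown, at percentiles 84.0 and 88.0. The gene thus stood low in the control and not extreme in the knockdown. No other annotated gene overlaps its span, and it has 1 m6A peak in each replicate, both with position 460 and ratios of 4.03 and 3.65. Position 460 lies outside both peak windows, 325 to 450 and 300 to 450. In the authors' deposited table its RIP ratio was 1.58, near the lowest listed ratio of 1.5.

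FBXO34, the other member with higher footprints at an unadjusted p under 0.05, had 7.94 in the control and 19.7 and 17.9 in the knockdown. Its mRNA was 12.6 against 10.4 and 10.3, so footprints were above and mRNA below the control in both libraries. The footprint change was 1.15 ± 0.42 (SE, limma adjusted p = 0.552). ATG14, TBPL2 and the antisense gene FBXO34-AS1 overlap its span, and the sources used here do not say whether counting used strand. FBXO34 and the other members chosen here by unadjusted p were picked after their values were seen. FBXL16, FBXO18, RNF149 and RNF169 were also picked by rules on these data, which were set with earlier results known.

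Among the F-box genes with lower footprints, FBXO36 had 11.5 in the control and 0 and 3.31 in the knockdown, with mRNA of 0.985, 0.624 and 1.87. Footprints were below the control in both libraries and mRNA was low throughout. No control value in the table was under 0.5, so no rise from 0 is listed beside this fall to 0 in knockdown 1. The footprint change was -2.59 ± 0.92 (SE, limma adjusted p = 0.552), and the span of FBXO36 overlaps TRIP12, another E3 ligase gene. Without footprint library 2 of the knockdown the change was -3.64, from a lone knockdown value of 0. FBXO18, a DNA helicase with an F-box, had footprints of 35.9 in the control and 18.2 and 18.7 in the knockdown, with mRNA at 27.0 against 20.7 and 22.3. All its knockdown values were below the control, and the footprint change was -0.92 ± 0.37 (SE, limma adjusted p = 0.559). It was not among the members with an unadjusted p under 0.05 after centring or quantile normalisation.

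Other F-box members had both libraries on one side of the control without reaching an unadjusted p of 0.05. FBXL5 had footprints of 43.1, 26.7 and 12.2 in the control, knockdown 1 and knockdown 2, at mRNA of 11.1, 14.3 and 9.53. FBXO21 had 77.6, 49.9 and 30.4, while its mRNA was 19.99, 38.3 and 24.4, higher in both knockdown libraries. FBXO28 had 28.4, 36.8 and 43.7.

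Of the 4 cullins, CUL2 and CUL4A had footprints below the control in both knockdown libraries, and CUL3 and CUL5 had values on either side of it. CUL2, the scaffold of the VHL ligase, had footprints of 57.6 in the control and 26.3 and 36.2 in the knockdown, with mRNA at 10.3, 7.65 and 8.34. CUL4A, which uses the adaptor DDB1, had footprints of 124, 94.3 and 83.3, with mRNA at 68.3, 56.1 and 60.7. In both genes the knockdown values of both assays lay below the control. CUL3, the partner of KLHL receptors, had footprints of 147, 138 and 167, with mRNA of 21.7, 26.4 and 24.4. CUL5, the scaffold of SOCS-box receptors, had footprints of 30.7, 17.8 and 39.6, with mRNA at 8.45, 4.59 and 7.97. The largest cullin footprint change was that of CUL2, -0.88 ± 0.42 (SE, limma adjusted p = 0.575). The signs of the CUL3 and CUL5 footprint changes turned when 1 footprint library was left out: CUL3 went from 0.05 to -0.09 without library 2, and CUL5 from -0.20 to 0.36 without library 1.

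KLHL26 (chromosome 19, 18637028 to 18671721) had the lowest footprint change of the KLHL genes. Its footprints were 23.1 in the control and 2.11 and 3.33 in the knockdown, or 2.72 ± 0.867 (SD, n = 2), and its mRNA was 8.56 against 4.51 and 7.88. Both footprint values lay far below the control, and both mRNA values below it too. The footprint change was -2.71 ± 0.54 (SE, limma adjusted p = 0.530, unadjusted p = 0.00200). KLHL20, a CUL3 receptor whose targets include DAPK1 and PML, had footprints of 27.4 against 11.4 and 10.6 at mRNA of 3.55, 2.46 and 3.03, and its span overlaps ANKRD45. KLHL18 stood on the other side, with footprints of 29.3 in the control and 64.2 and 38.6 in the knockdown at mRNA of 9.08, 8.24 and 8.001.

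RNF149 had the lowest mean footprint change of all members and a control value unlike its knockdown values. Its footprints were 945 in the control library and 17.2 and 301 in knockdown 1 and 2, while its mRNA was 18.5, 20.2 and 15.5. The knockdown libraries were both below the control and lay far apart. The change was -3.67 ± 1.42 (SE, limma adjusted p = 0.552). It was -5.70 without knockdown library 2, when it passed (adjusted p = 0.0101), and -1.65 without library 1 (adjusted p = 0.225). Its footprint to mRNA ratio lay at percentile 99.6 in the control library, and at 21.6 and 98.9 in knockdown 1 and 2. The span of RNF149 (chromosome 2, 101271219 to 101308701) holds the snoRNA gene SNORD89. A snoRNA or snRNA gene lies within 3 of the 100 members and within 3.85% of all genes found in RefSeq. Whether small RNA reads enter the footprint value was not tested.

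RNF169, which binds ubiquitylated chromatin at DNA breaks, had footprints of 30.7 in the control and 12.2 and 4.55 in the knockdown, at mRNA of 1.61, 2.85 and 2.21. Footprints were below and mRNA above the control in both libraries. The footprint change was -1.89 ± 0.64 (SE, limma adjusted p = 0.552), and its span overlaps XRRA1. RNF168, which acts in the same DNA damage response, had footprints of 10.7, 4.71 and 10.5. RNF13, an endosomal ligase, had 84.1, 51.4 and 35.0 at mRNA of 6.30, 8.67 and 5.46.

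RNF40, a subunit of the ligase for histone H2B, had footprints of 26.6 in the control and 51.0 and 38.2 in the knockdown, at mRNA of 47.2, 38.9 and 46.4. RNF10 had footprints of 57.3, 104 and 82.3 at mRNA of 38.3, 28.3 and 43.4. RNF185, a ligase of the endoplasmic reticulum, had footprints of 36.2, 57.6 and 44.2 at mRNA of 8.11, 6.54 and 6.404. Their footprint changes were 0.71, 0.68 and 0.47 (limma adjusted p = 0.586, 0.604 and 0.706). RNF40 and RNF10 were among the members with an unadjusted p under 0.05 after centring and after quantile normalisation. RNF167, a ligase of endosomes and lysosomes, had footprints of 107, 105 and 99.2, with mRNA at 81.3, 88.8 and 90.1. RNF181 had footprints of 271, 192 and 217 at mRNA of 59.3, 62.6 and 64.3.

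Among the TRIM genes TRIM28, the corepressor of KRAB zinc finger proteins, had footprints of 1061 in the control and 438 and 795 in the knockdown, with mRNA at 276, 114 and 297. Its footprint and mRNA values were both lowest in knockdown 1. TRIM47 had footprints of 99.2, 70.4 and 50.4. TRIM37, a ligase of centrosomes and peroxisomes, had 31.4, 21.6 and 21.2, at mRNA of 13.2, 21.4 and 17.3, so that its footprints were below and its mRNA above the control in both libraries. The footprint changes of TRIM28, TRIM47 and TRIM37 were -0.85, -0.73 and -0.53 (limma adjusted p = 0.656, 0.617 and 0.660).

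**Figure D2:**
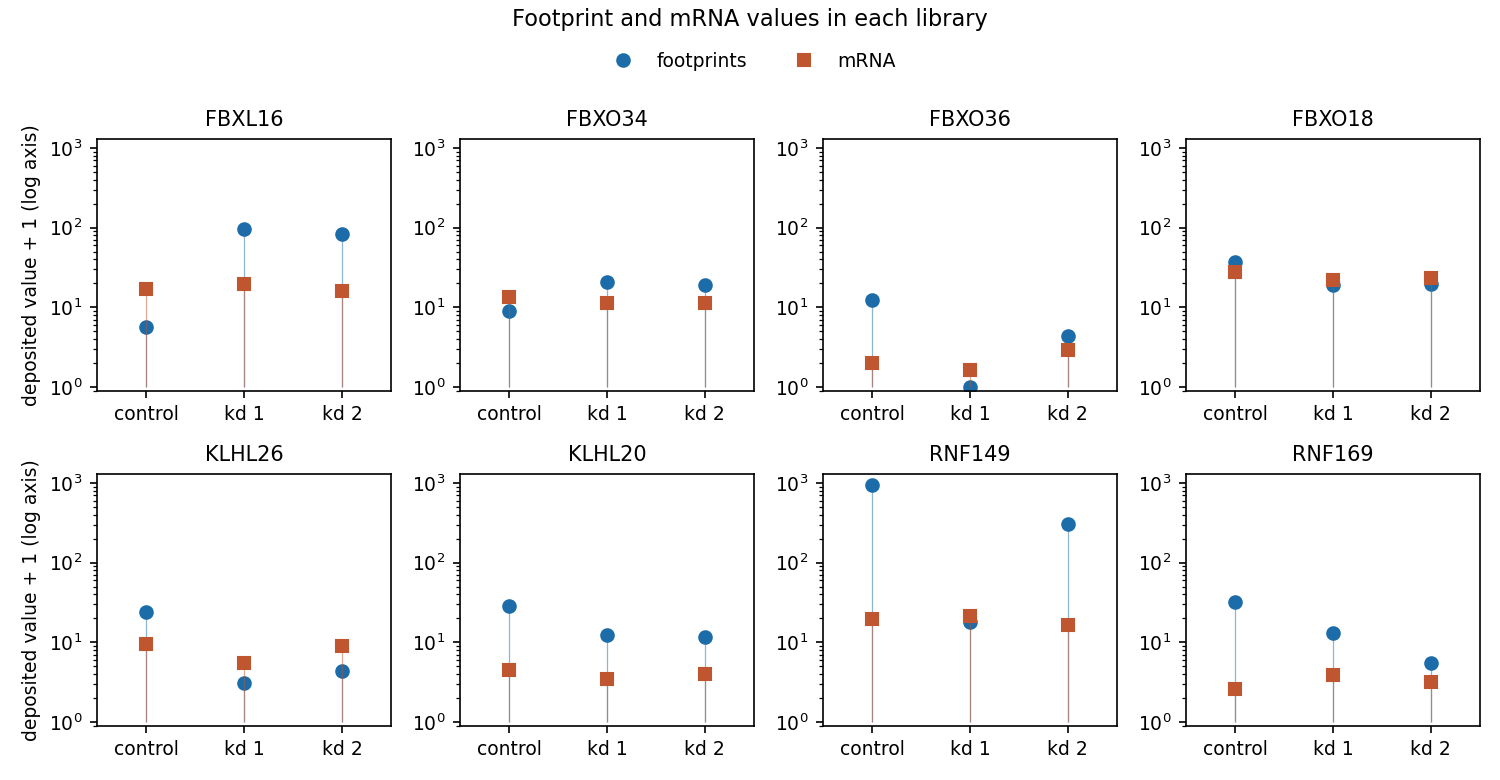
Deposited value + 1 on a log axis of the 8 members with an unadjusted footprint p under 0.05, in the control, knockdown 1 and knockdown 2 (circles footprints, squares mRNA, 1 library each). Footprints of FBXL16 stand at 4.67, 94.7 and 80.9 over level mRNA, and those of RNF149 at 945, 17.2 and 301.

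The mRNA changes of the members were smaller. None of 100 passed (limma adjusted p under 0.05), beside 0.0% of all genes, and none had an unadjusted p under 0.05, against 0.177% of all genes higher and 0.295% lower. This fit uses 1 spread per gene for footprints and mRNA together. With each assay fitted alone, 1 member (FBXO27) had an unadjusted limma p under 0.05 in mRNA, beside 1.59% of all genes. In footprints 5 members did, beside 4.36%. Both knockdown libraries were above the control in 30 members (30.9% of all genes) and below it in 26 (29.9%), and the median change was 0.05. The F-box genes had a median of 0.12 with 13 of 28 above in both libraries and 5 below, and the cullins a median of -0.27 with 1 above and 3 below.

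The largest mRNA difference was in FBXO27, an F-box protein that recognises glycoproteins. Its mRNA was 6.22 in the control and 18.6 and 14.1 in the knockdown, while its footprints were 19.3, 37.1 and 12.8. Both mRNA values were above the control and the footprints lay on either side, and the mRNA change was 1.25 ± 0.65 (SE, limma adjusted p = 1.00, unadjusted p = 0.0999). FBXO11, which targets BCL6, had mRNA of 22.4, 39.5 and 31.2 with footprints of 64.1, 77.5 and 68.5. On the other side TRIM65 had mRNA of 18.4, 9.74 and 11.6, RNF26 had 55.6, 27.6 and 43.0, and KLHL42 had 8.55, 4.52 and 5.44.

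Across the 100 members the footprint and mRNA changes had a Pearson correlation of 0.052, against 0.197 over all genes. Both changes had the same sign in 49 members, beside 3864 of all 6782 genes. The points share their libraries, so this is a description. The median size of a change was 0.48 in footprints and 0.21 in mRNA on the log2 scale, beside a median SD between knockdown libraries of 0.39 and 0.23. Footprints of these genes thus differed more from the control than mRNA did, and also more between the knockdown libraries. The same held over all genes, with median sizes of 0.458 and 0.214 and median SDs of 0.354 and 0.225.

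**Figure D3:**
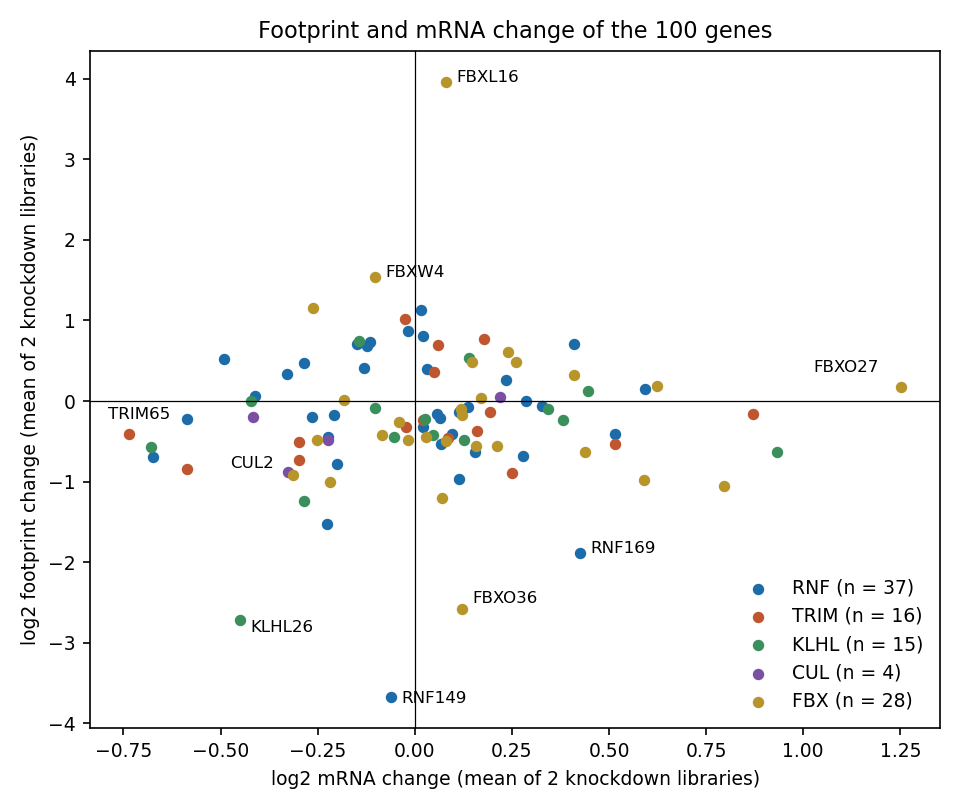
Log2 change in footprints against log2 change in mRNA (means of the knockdown libraries, log2(value + 1) scale) for the 100 genes, coloured by family. FBXL16, RNF149 and FBXO36 lie far from 0 in footprints and near it in mRNA (0.08, -0.06 and 0.12), KLHL26 lies at -2.71 and -0.45, and FBXO27 is the only point above 1 in mRNA.

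Translational efficiency is the footprint change minus the mRNA change in the same fit. It passed the adjusted test in 0 members, beside 0.0% of all genes, and had an unadjusted limma p under 0.05 in 3: FBXL16 higher (all genes 0.59%), and KLHL26 and RNF169 lower (all genes 2.14%). After centring the split was 2 higher and 1 lower, against 1.62% and 1.00% of all genes. The 3 members became 13 without footprint library 1 of the knockdown (7.64% of all genes) and 9 without library 2 (10.7%), and 2 and 1 without mRNA library 1 and 2 (0.914% and 0.885%). Both numbered differences were above the control in 24 members (18.7% of all genes) and below it in 50 (52.0%), and the median was -0.26 against -0.27 over all genes. FBXL16 had 3.88 ± 0.55 (SE, limma adjusted p = 0.675), the highest of all genes. KLHL26 had -2.26 ± 0.77 and RNF169 -2.32 ± 0.91 (both limma adjusted p = 0.996). FBXO21 had -1.57 ± 0.66 and FBXL5 -1.27 ± 0.80 (both limma adjusted p = 0.996).

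Most members carried m6A. At least 1 listed peak in each replicate was found in 85 members (72.5% of all genes), in either replicate in 90 (83.3% of all genes) and in neither in 10. A peak in both was found in 31 of 37 RNF, 13 of 16 TRIM, 13 of 15 KLHL, 3 of 4 cullin and 25 of 28 F-box genes. The 10 without a peak were FBXL12, FBXO22, KLHL28, RNF125, RNF181, RNF2, RNF220, RNF7, TRIM44 and TRIM69. Among them RNF2 is the catalytic subunit of Polycomb complex PRC1 and RNF7 the RING partner of CUL5. Expression and transcript length were not matched between the members and all genes.

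The members held 229 peaks in replicate 1 and 239 in replicate 2, or 2.29 and 2.39 per gene against 2.23 and 2.25 over all genes. Of the replicate 1 peaks 183 overlapped a replicate 2 peak by at least 1 base (79.9%, against 75.4% over all genes). The median peak ratio was 6.07 and 5.93, against 5.63 and 5.48. By family it was 6.58 and 7.18 in RNF, 6.39 and 6.02 in TRIM, 6.09 and 5.39 in KLHL, 5.41 and 4.20 in the cullins and 5.67 and 5.43 in the F-box genes. The replicates share an input: where a window and summit were identical in both lists, the input signal was too, in 752 of 752 peaks overall and 10 of 10 in the members. Agreement between them therefore covers the immunoprecipitates only.

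FBXO41 had the most peaks, 11 and 7, followed by TRIM2 with 7 and 8, RNF111 with 6 and 7, and KLHL29 with 8 and 5. RNF111 is the ligase Arkadia of TGF-beta signalling. TRIM72 had 5 and 6 and TRIM65 6 and 5. CUL5 had a peak in replicate 2 only, and CUL3 had 1 and 2 peaks.

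A GGAC motif was named at 38.4% of member peaks in replicate 1 and 33.9% in replicate 2, against 30.7% and 29.5% over all genes. The other listed motifs were AGAC, GAAC and AAAC, each followed by A, C or T, 12 in all with those of GGAC. At 135 sites in 76 members both replicates named the same position, and 44 of these sites (32.6%) held GGAC, against 30.4% of such sites over all genes. The excess seen per peak was thus smaller at shared sites, and no test was made of either. The listed adenosine lay inside the peak window in 177 of 229 and 192 of 239 member peaks.

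**Figure D4:**
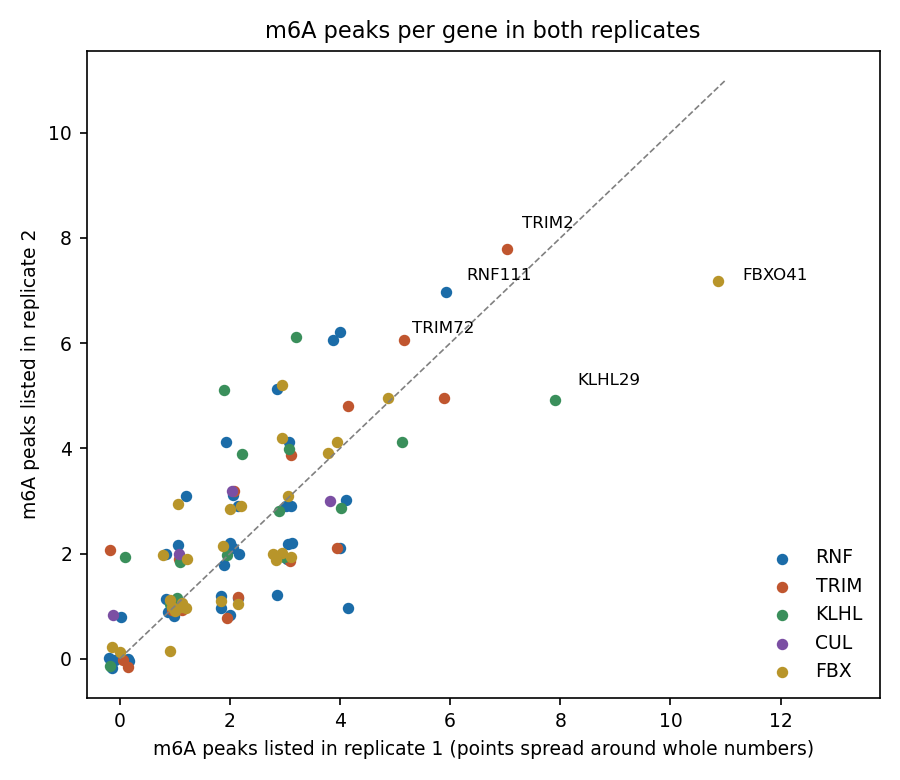
Number of listed m6A peaks per gene in replicate 1 (x) and replicate 2 (y) for the 100 genes, coloured by family and spread slightly so that points do not hide each other, with a dashed line where both are equal. Most genes lie near the diagonal between 0 and 5 peaks, and FBXO41 is farthest right at 11 and 7.

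The RIP list gives FPKM values of the YTHDF1 immunoprecipitate and its input and holds only genes with a ratio of at least 1.5. Of the members 46 were listed in the authors' deposited table (35.6% of all genes). They were 15 of 37 RNF, 10 of 16 TRIM, 9 of 15 KLHL, 1 of 4 cullin and 11 of 28 F-box genes. The median ratio of the listed members was 2.25 in the authors' deposited table, against 2.27 over all listed genes tested, and family medians ran from 2.02 in KLHL to 2.40 in RNF. There was 1 library of each kind, so no ratio has a replicate.

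KLHL36 had the highest ratio of the members in the authors' deposited table, 5.45, from 31.7 FPKM in the immunoprecipitate and 5.81 in the input. In the authors' deposited table KLHL11 had 5.10 (7.94 over 1.56 FPKM), FBXL14 had 4.78 (8.69 over 1.82) and FBXO21 had 4.51 (36.3 over 8.04). FBXL14 is known for targeting SNAIL1, a driver of the epithelial-mesenchymal transition. In the authors' deposited table TRIM3 stood at 3.92, RNF24 at 3.51 and KLHL21, a CUL3 receptor of mitosis, at 3.49. The inputs of TRIM3, RNF24 and KLHL21 were 1.44, 2.03 and 3.4 FPKM. CUL4A was the only cullin listed, at 2.23 in the authors' deposited table. At a ratio of at least 2 the list held 28 members, and the share of all genes at that ratio was not computed.

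**Figure D5:**
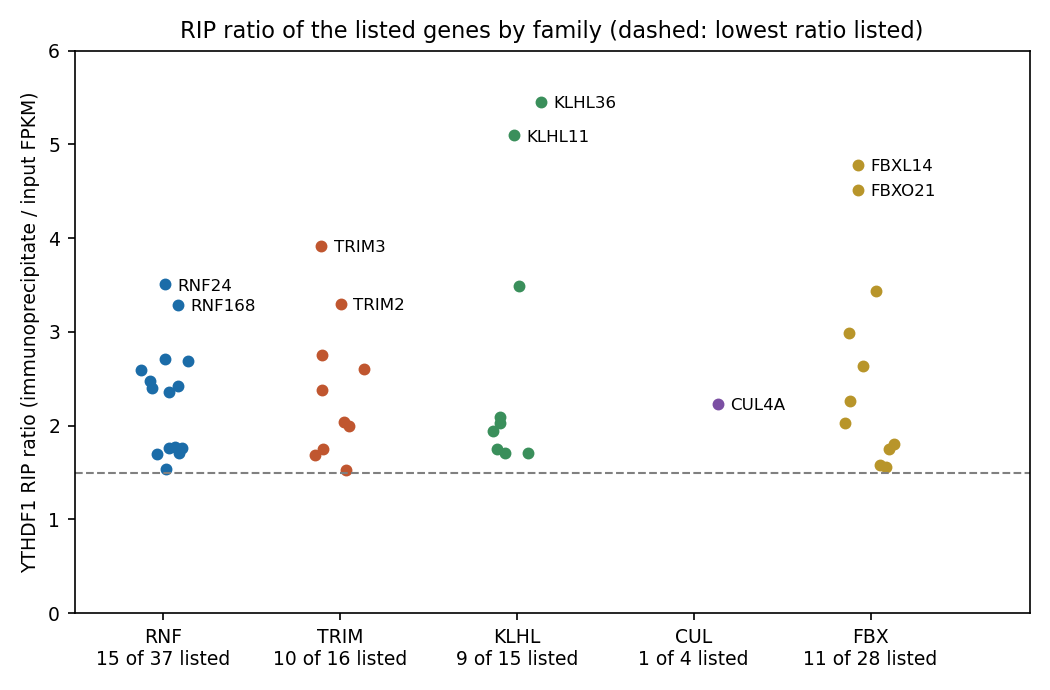
RIP ratio (immunoprecipitate FPKM over input FPKM, the authors' values) of the 46 listed members by family, 1 point per gene, with the lowest listed ratio of 1.5 as a dashed line. Every family but the cullins spreads from close to that line to above 3, and KLHL36 (5.45) and KLHL11 (5.10) are the highest points.

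Of the 46 listed members 45 also had an m6A peak in both replicates, 45.0% of the members against 31.8% of all genes. RNF220 was the listed member without a peak. The median footprint change was -0.35 in the 46 listed members and -0.19 in the 54 unlisted, beside -0.31 and -0.27 over all genes. Yet both knockdown libraries were below the control in 43.5% of the listed and 51.9% of the unlisted members. Over all genes these shares were 52.2% and 50.6%. In the members the count and the median thus point opposite ways. For translational efficiency the medians were -0.25 in the listed and -0.30 in the unlisted members, beside -0.29 and -0.26 over all genes. Members with a peak in both replicates had a median footprint change of -0.22, and the 10 without a peak -0.29. Over all genes these medians were -0.29 and -0.24. None of these differences was tested.

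Of the 7 members with the highest RIP ratios named above, 4 had footprints on either side of the control. The other 3 had both knockdown libraries below it, as did 51.2% of all genes. KLHL36 had footprints of 2.77 in the control and 0.961 and 6.24 in the knockdown, KLHL11 had 16.8, 15.9 and 21.2, and FBXL14 had 15.7, 10.2 and 11.6. TRIM3 had 7.85, 14.6 and 2.97, and RNF24 had 17.0, 17.0 and 5.97. KLHL21 had 11.9, 6.82 and 10.9, so that FBXL14, KLHL21 and FBXO21, given above, were the 3 below the control in both libraries.

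Other genes of the ubiquitin ligase pathway were taken as 5 lists by name. No gene of any list passed the adjusted limma test in footprints, mRNA or translational efficiency. At an unadjusted limma p under 0.05 in footprints there were 2 lower genes in the cullin-RING core, 2 higher and 6 lower among the other receptors, 1 higher and 1 lower among HECT, RBR and U-box ligases, 1 higher and 7 lower among the other RING ligases, and 0 in the COP9 signalosome, beside 1.86% higher and 6.99% lower over all genes. The core of the cullin-RING ligases and the enzymes that attach NEDD8 to cullins had 13 of 21 genes tested. The median footprint change of this core was 0.00. In both libraries 4 of its genes were higher and 5 lower, beside 17.5% and 51.2% over all genes. GLMN, an inhibitor of the RING subunit RBX1, had footprints of 51.4 in the control and 23.9 and 19.8 in the knockdown. DDB2, the DNA damage receptor of CUL4 complexes, had 58.7, 153 and 70.4 at mRNA of 19.7, 40.5 and 22.6. The COP9 signalosome, which removes NEDD8, had 7 of 9 genes tested, a median of -0.17, 0 higher and 3 lower. Its subunit COPS4 had mRNA of 17.2, 38.5 and 31.9 at footprints of 71.5, 81.2 and 69.2.

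Substrate receptors with other names had 52 of 78 genes tested and the lowest median of the lists, -0.54. In both libraries 8 were higher and 31 lower, beside 17.5% and 51.2% over all genes. KEAP1, the CUL3 receptor of NRF2, had footprints of 91.5 in the control and 20.7 and 45.8 in the knockdown, while its mRNA was 39.9, 39.7 and 44.1. ASB8, a SOCS-box receptor, had footprints of 24.8, 71.7 and 137 at mRNA of 2.84, 4.44 and 4.49. RING ligases with other names had 63 of 105 genes tested, a median of -0.41, 6 higher and 41 lower. BARD1, the partner of BRCA1, had footprints of 70.8, 15.1 and 34.1, with mRNA at 14.2, 3.83 and 5.17. HECT, RBR and U-box ligases had 25 of 39 genes tested, a median of -0.16, 8 higher and 11 lower, and ARIH2, which works with CUL5, had footprints of 98.2, 417 and 146. The adjusted p of GLMN, KEAP1, ASB8 and BARD1 in footprints was 0.552 in limma for each. The medians of these lists lie on both sides of the -0.28 of all genes, and the lists were not tested against them.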

How the data were processed

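Ribosome profiling, mRNA-seq, RIP-seq and m6A-seq of HCT116 were used. Per the submitters' processing notes STAR and GRCh38 were used, with versions, quantifier and peak caller not given in the sources used here. Per gene, the deposited expression values are a signal in no named unit, with no control value under 0.5. The RIP list holds FPKM values from the authors and their ratio. The m6A lists, called per replicate, hold the authors' signal in immunoprecipitate and input and their ratio, at least 3.

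The 6782 genes with a mean log2(value + 1) of at least 1 were tested, leaving out 132 by this filter and 12 with damaged names. limma 3.58.1 (R 4.3.3) fitted 1 mean per assay and condition over 6 libraries with 2 residual degrees of freedom, 2-sided, with a pseudocount of 1. The log2 scale understates changes of low genes, and the spread of each lone control is taken from the knockdown pairs. The fit was tested on simulated data. Precision rests on few libraries, since depth is unknown. Coordinates and overlaps are from RefSeq (GRCh38.p14), in which all 100 members were found. No protein sequences were used here.

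Named genes were YTHDF1, all cullins, members past the threshold in limma or with a replicate block, and per family up to 3 with the largest difference in each direction and contrast (both libraries on one side, level at or above the median), the most m6A peaks or the highest RIP ratio (input of at least 1 FPKM). From each pathway list the rule took 1 in each direction. The members, lists and rules were chosen with earlier results of these data known. Alternatives covered pseudocount, filter, scaling, left-out libraries, the replicate block, each assay alone, and stricter peak and RIP ratios. Values of 1 member are not reported here by name.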

Additional observations from a re-analysis of the deposited data

How the results depend on the processing

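Members past the adjusted threshold in footprints numbered 0 to 3 when 1 library was left out: 1 (FBXL16) without footprint library 1 of the knockdown, when 8 of 6782 genes passed, and 3 (FBXL16, FBXO36 and RNF149) without library 2, when 80 did. With the replicate block 1 member passed in footprints, of 30 genes in all (FBXL16, limma adjusted p = 0.000976, range over settings 0.000976 to 0.104) and 1 in translational efficiency (FBXL16, adjusted p = 0.0269), of 6 genes in all. The block changed no other adjusted call of a member. With it 15 members had an unadjusted limma p under 0.05 in footprints (18.2% of all genes). In translational efficiency there were 8 (6.59%), and in mRNA 1 (2.24%). The labels do not say that the knockdown numbers pair cultures, and the difference between knockdown libraries correlated at 0.37 across genes between assays. The median of the members minus that of all genes ran from 0.047 to 0.12 in footprints and from -0.066 to 0.069 in translational efficiency over left-out libraries. Members on the RIP list numbered 28 at a ratio of at least 2, with no share of all genes computed at that ratio. Members with an unadjusted limma p under 0.05 numbered 4 to 18 in footprints (8.14% and 21.0% of all genes in the same settings), 0 to 1 in mRNA and 1 to 13 in translational efficiency (0.885% and 7.64%, the first without mRNA library 2).

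Of 1080 single-gene values under other settings 1066 kept their direction and 14 turned, in 7 of 93 results, and 6 newly passed the threshold. After centring, the translational efficiency change was 0.22 in YTHDF1, 0.020 in CUL4A and 0.11 in CUL3, and the CUL5 footprint change 0.089. After quantile normalisation it was 0.17 in YTHDF1 and 0.046 in CUL3, and 0.074 for CUL5 footprints. Over left-out libraries the footprint change ran from -0.086 to 0.18 in CUL3 and from -0.76 to 0.36 in CUL5. The efficiency change ran from -0.17 to 0.048 in YTHDF1, from -0.34 to 0.77 in CUL5 and from -1.31 to 0.16 in SMURF2. The cause of these turns was not tested. Depth is unknown for the expression table, and each control is 1 library.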
